A study of Homo sapiens with 6 samples.

Results

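The members are 43 genes of the cell cycle engine: cyclins, cyclin-dependent kinases (CDKs), CDK inhibitors, the RB family, the E2F and DP transcription factors, and the enzymes that switch CDKs on and off. They were found by gene symbol in the platform annotation of an Illumina bead array, on which 42 of the 43 had at least 1 named probe, 63 probes in all among the 28094 that name a single gene. CDKN2C, an INK4 inhibitor, had no named probe. All 42 passed the filter on dim probes, and 11732 genes were tested in total. The study profiled 6 RNA samples labelled as SKOV3, a human ovarian carcinoma line: 3 of the subline SKOV3-ip1, labelled parental, and 3 of SKOV3-OM3, labelled metastatic. Both groups are described as cells, while the extraction protocol speaks of RNA from tissues, and no treatment, passage or time is given. Nothing in them says that the arrays of a group came from separate cultures, so the p-values cover only the spread between these RNA samples, which may be technical.

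Progress through the cell cycle is driven by CDKs, which are active only when bound to a cyclin. D-type cyclins with CDK4 or CDK6, then cyclin E with CDK2, phosphorylate RB and its relatives, which frees E2F-DP factors to transcribe genes of DNA replication. Cyclin A and cyclin B carry cells through S phase and into mitosis, while inhibitors such as p27 and p16, and inhibitory phosphorylation by WEE1 and PKMYT1, hold the kinases back.

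Values are log2 of the background-corrected, quantile-normalized intensity, given for each array in the order of the deposited columns, and changes are OM3 minus ip1. A change was called at a limma adjusted p under 0.05. Median signals were 131 to 142, 38.3% to 41.9% of probes lay above background, and the correlation of arrays, taken over all tested genes, was 0.984 to 0.988 within a group and 0.797 to 0.813 between groups. The OM3 arrays departed from their label in several markers: of 8 epithelial and SKOV3 markers 6 were lower and 1 higher, and KRT19 and PAX8 were below background on all 3 OM3 arrays. For comparison with this and the marker counts below, 57.1% of all genes tested were called, 31.2% higher and 25.9% lower in OM3. The summed signal of these 8 markers was 41473 to 45055 in ip1 and 9106 to 10779 in OM3. Fibroblast markers went the other way: of 8 listed, 5 were tested and all 5 were higher in OM3, with summed signals of 215 to 271 in ip1 and 3288 to 4371 in OM3, while COL1A1, PDGFRB and FAP did not pass the filter. Of 5 mesothelial markers 4 were lower, with sums of 3050 to 3254 in ip1 and 242 to 382 in OM3. Leukocyte markers summed to 1937 to 2527 in ip1 and 594 to 747 in OM3 over the 3 of 6 listed genes that passed the filter, which PTPRC and CD3E did not. Endothelial markers (2 of 5 tested, none called) summed to 153 to 170 and 154 to 199, and VWF, CDH5 and TEK did not pass the filter. Adipocyte markers (2 of 5 tested) summed to 300 to 599 and 320 to 418: PLIN1 was lower in OM3, LEP was above background on every array and not called, and ADIPOQ, FABP4 and CIDEC did not pass. CDKN2A, known to be deleted in SKOV3, was above background on all 3 OM3 arrays and on no ip1 array (main probe). The part of these differences in the results was not tested. Whether OM3 descends from ip1 cannot be told from these files. Words such as rose or lower therefore compare the 2 groups and need not describe changes within 1 lineage.

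Of the 42 tested members, 16 were higher and 13 lower in OM3, together 69%, where 57.1% of all genes tested were called (31.2% higher and 25.9% lower). The groups did not overlap for 34 members (81%), against 64.2% of all genes. A called change of at least 2-fold was seen for 7 higher and 4 lower members, where 12.8% and 13.8% of all genes reached that size. The members' median log2 change was -0.041, against 0.085 over all genes. No set test was run, since the members were listed with results of these data known.

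**Figure D1:**
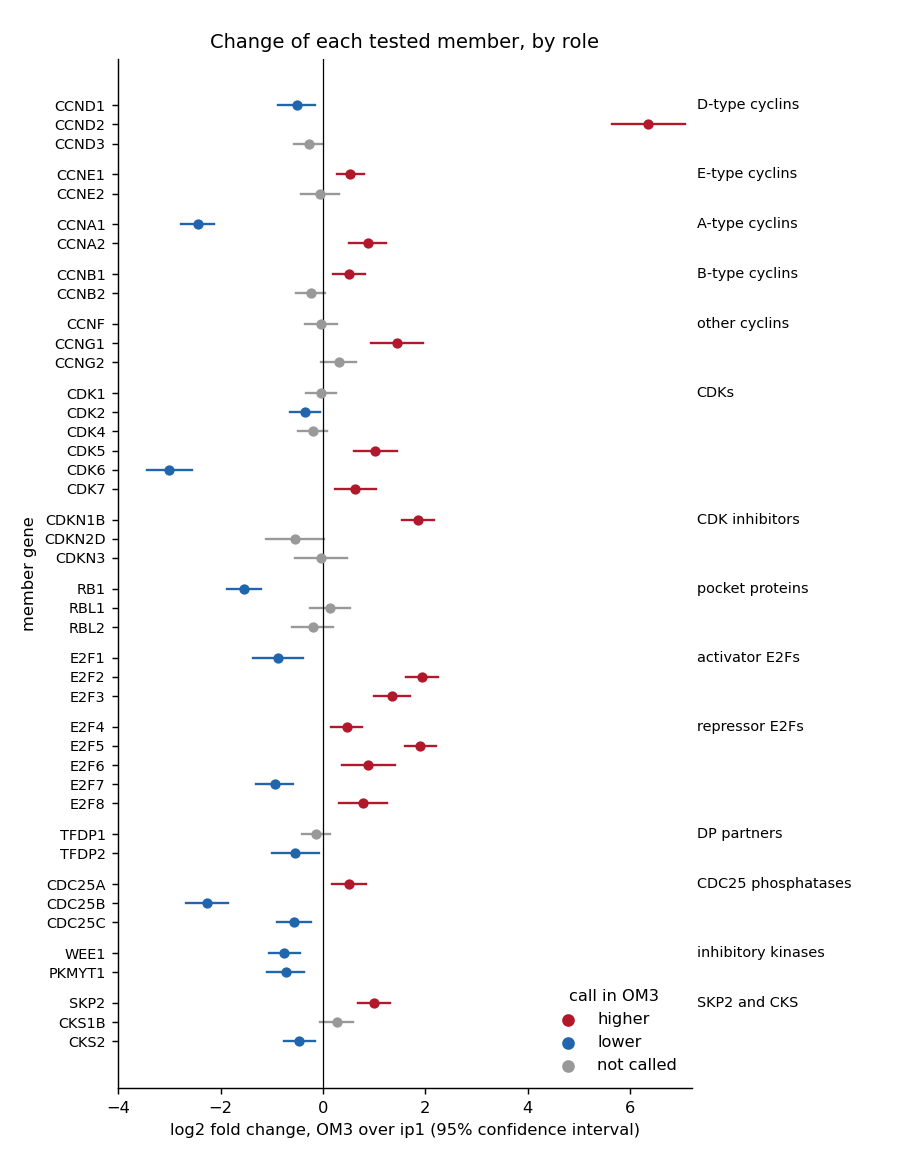
Log2 fold change of OM3 over ip1 (x axis) with its 95% confidence interval for the 42 tested members (y axis), grouped by role; red members were called higher, blue lower and grey not called. CCND2 lies far to the right at 6.36 and CDK6 farthest to the left at -3.002, and most roles hold members on both sides of 0.

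Among the genes that open the cycle, OM3 had far more CCND2, less CDK6, and slightly less CCND1. CCND2 (cyclin D2) was at 4.99, 5.98 and 4.58 in ip1, above background on 1 of these 3 arrays, and at 11.62, 11.62 and 11.39 in OM3. The groups stood wide apart, with a log2 change of 6.36 ± 0.31 (SE, n = 3 + 3, adjusted p = 5.54e-07), in which the ip1 values are in part background signal. The size of this change depended on the processing, from 4.36 in the authors' deposited table to 6.77 without ip1 replicate 2, with the call kept in each. A second CCND2 probe gave 3.87 ± 0.17 (adjusted p over all probes = 3.09e-07), again above background on 1 of 3 ip1 arrays. CCND1 (cyclin D1) was bright in both lines, at 13.07, 12.85 and 13.19 in ip1 and 12.29, 12.61 and 12.66 in OM3. Its decrease was small, -0.52 ± 0.16 (adjusted p = 0.0203), and was not called without ip1 replicate 3 (adjusted p = 0.0761), without OM3 replicate 1 (0.0761) or with no filter on dim probes (0.0579). CCND3 (cyclin D3) differed by -0.28 (95% confidence interval -0.57 to 0.00) and did not pass (adjusted p = 0.0811), although its groups did not overlap. It was called lower with cyclic loess (adjusted p = 0.0384) and in the authors' deposited table of log2 values (0.0314).

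CDK6, one of the partners of the D-type cyclins, was at 10.74, 11.11 and 11.25 in ip1 and 8.01, 7.78 and 8.32 in OM3. All 3 OM3 arrays lay well below the lowest ip1 array, a log2 change of -3.002 ± 0.19 (adjusted p = 2.60e-06), 8.01-fold lower. CDK4, the other partner, was at 12.95 ± 0.12 (SD) in ip1 and 12.75 ± 0.04 in OM3 and did not pass (adjusted p = 0.200, interval of the difference -0.49 to 0.08).

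**Figure D2:**
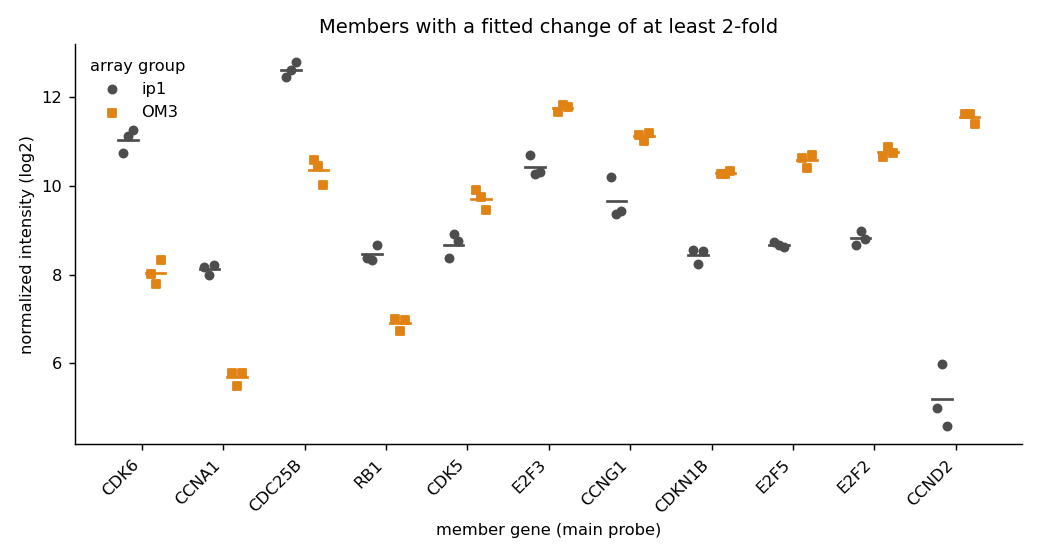
Normalized log2 intensity (y axis) of the main probe of the 11 members with a fitted change of at least 2-fold (x axis), 1 point per array and a bar at the group mean, circles for ip1 and squares for OM3. In none of the 11 do the groups overlap, and the 3 ip1 values of CCND2 are the most scattered, from 4.58 to 5.98.

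Among the CDK inhibitors, CDKN1B rose. CDKN1B encodes p27, which binds and blocks cyclin E-CDK2 and cyclin A-CDK2. It was at 8.55, 8.24 and 8.53 in ip1 and 10.27, 10.27 and 10.34 in OM3, with the OM3 arrays tightly grouped above all ip1 arrays. The log2 change was 1.86 ± 0.14 (adjusted p = 6.50e-06), 3.62-fold, and a second probe gave 1.63 ± 0.14 (adjusted p over all probes = 1.84e-05). CDKN2D (p19, an INK4 inhibitor of CDK4 and CDK6) differed by -0.55 (interval -1.12 to 0.01, adjusted p = 0.0863), with overlapping groups. It was called lower under 5 of 14 alternatives: without OM3 replicate 2 (adjusted p = 0.0213), with cyclic loess (0.0341), with no background correction (0.0300), with an offset of 50 (0.0479) and in the authors' deposited table of log2 values (0.0299). CDKN3, a phosphatase that acts on CDK2, differed by -0.040 (interval -0.55 to 0.47).

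The inhibitors outside the member list split as well, with 2 of 4 higher and 2 lower, where 57.1% of all genes were called. CDKN2A, which encodes p16 and ARF and is known to be deleted in SKOV3, reached 9.31, 9.54 and 9.48 in OM3 and no ip1 array measured it above background, which makes it at least 11.2-fold higher (adjusted p = 1.06e-06). A second CDKN2A probe was at least 6.77-fold higher, and the remaining one did not exceed background in either line. CDKN2B (p15), its neighbour, rose by 0.44 ± 0.14 (adjusted p = 0.0235). The CDKN2B call was lost with cyclic loess (0.110), median centring (0.0644), the authors' deposited table (0.0512) and no filter (0.0699), and without ip1 replicate 1 (0.0619), OM3 replicate 1 (0.0814) or OM3 replicate 3 (0.0736). CDKN1A (p21, a p53 target) had a log2 change of -1.005 ± 0.18 (adjusted p = 0.00165). CDKN1C (p57) had one of -1.61 ± 0.24 (adjusted p = 0.000516), and 2 of 3 OM3 arrays did not measure it above background.

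Of the pocket proteins, which hold E2F factors in check, RB1 was lower and its relatives did not pass. RB1 was at 8.37, 8.33 and 8.66 in ip1 and 7.01, 6.73 and 6.98 in OM3. The groups were separated by more than 1 log2 unit, a change of -1.55 ± 0.15 (adjusted p = 3.56e-05), 2.92-fold lower. The size of the RB1 change depended on the processing, from -1.69 to -0.996 over 14 alternatives, with the call kept in each. RBL1 (p107) differed by 0.13 (interval -0.26 to 0.52) and RBL2 (p130) by -0.20 (interval -0.60 to 0.20), both with overlapping groups.

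All 8 E2F genes were called, 6 higher and 2 lower, where 57.1% of all genes tested were called (31.2% higher and 25.9% lower). E2F2, an activator, was at 8.66, 8.97 and 8.80 in ip1 and 10.65, 10.87 and 10.74 in OM3, a log2 change of 1.94 ± 0.14 (adjusted p = 5.52e-06). E2F3, also an activator, was at 10.68, 10.26 and 10.30 in ip1 and 11.67, 11.82 and 11.77 in OM3, a change of 1.34 ± 0.15 (adjusted p = 9.83e-05). Every OM3 array lay above every ip1 array for both. E2F1, the best known activator, moved the other way, from 7.16, 6.58 and 6.52 to 6.19, 5.69 and 5.75 (-0.88 ± 0.21, adjusted p = 0.00678). It was dim, and only 1 OM3 array measured it above background. The E2F1 change ran from -1.04 to -0.38 over 13 alternatives, with the call kept in each.

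The E2F genes that mainly repress were mostly higher. E2F5, a partner of the p130 class of pocket proteins, was at 8.74, 8.66 and 8.61 in ip1 and 10.62, 10.39 and 10.70 in OM3, a change of 1.90 ± 0.14 (adjusted p = 5.35e-06), 3.74-fold. E2F6, which represses without pocket proteins, rose by 0.89 ± 0.23 (adjusted p = 0.00982), while its dim second probe gave 0.051 ± 0.18. E2F4 rose by 0.46 ± 0.13 (adjusted p = 0.0172), and this small change was not called without OM3 replicate 2 (adjusted p = 0.0537) or with no filter on dim probes (0.0549). Of the atypical pair, which bind DNA without a DP partner, E2F8 rose by 0.78 ± 0.21 (adjusted p = 0.0111) and E2F7 had a change of -0.94 ± 0.16 (adjusted p = 0.000968). The E2F8 change ran from 0.39 to 0.94 over 14 alternatives, with the call kept in each. Of the DP partners, TFDP1 differed by -0.14 (interval -0.42 to 0.14) and TFDP2 was lower by a change of -0.54 ± 0.20 (adjusted p = 0.0454). The TFDP2 groups overlapped, and its call was lost without ip1 replicate 1 (adjusted p = 0.132), ip1 replicate 2 (0.0992), OM3 replicate 1 (0.151) or OM3 replicate 3 (0.0823), and with no filter on dim probes (0.103).

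Promoters of several members carry E2F-type words. Promoters of 300 bases (250 before to 50 after the start, RefSeq, GRCh38.p14) were given for 35 of the 43 members. CCND1, CCND2, CCNE2, CDK2, E2F5, E2F8, PKMYT1 and WEE1 had no entry. The words TTTCCCGC, TTTCGCGC, TTTGCCGC and TTTGGCGC were searched on both strands, and 7 of the 35 genes (20%) held at least 1, against 3.99% of the 27305 genes in the table and 6.71% of the 9578 tested genes with an entry. Of these 7, E2F2, E2F3 and CDC25A were higher in OM3, E2F1 was lower, and CDK1, RBL1 and TFDP1 did not pass. Over all genes tested, 57.1% were called (31.2% higher and 25.9% lower). Whether the words bear on the calls of these 7 genes was not tested. The 100 bases before the start follow for 4 of these genes, 5′ to 3′ on the gene's strand, with the words in capitals (in E2F1 the first word is on the opposite strand, and no words overlap). They lie at chr1:23531234-23531333 (E2F2), chr3:48188418-48188517 (CDC25A), chr20:33686386-33686485 (E2F1) and chr20:37095998-37096097 (RBL1), all on the minus strand.
E2F2: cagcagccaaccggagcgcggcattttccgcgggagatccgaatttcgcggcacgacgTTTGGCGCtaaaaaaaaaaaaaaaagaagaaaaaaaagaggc
CDC25A: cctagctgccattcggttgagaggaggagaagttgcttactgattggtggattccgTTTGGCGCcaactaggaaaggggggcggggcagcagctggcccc
E2F1: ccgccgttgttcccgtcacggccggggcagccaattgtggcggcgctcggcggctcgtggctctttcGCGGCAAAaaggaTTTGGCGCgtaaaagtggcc
RBL1: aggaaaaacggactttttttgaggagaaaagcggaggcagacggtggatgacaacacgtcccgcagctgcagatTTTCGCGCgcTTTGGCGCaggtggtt

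Changes of the later cyclins were under 2-fold apart from that of CCNA1. CCNE1 (cyclin E1) was at 10.06, 10.04 and 10.05 in ip1 and 10.61, 10.58 and 10.55 in OM3, a small rise of 0.53 ± 0.12 (adjusted p = 0.00427) between tight groups. A dim second probe of CCNE1 gave -0.13 ± 0.36, and the mean of both was not called (adjusted p = 0.419). CCNE2 (cyclin E2), near background in both lines, differed by -0.059 (interval -0.42 to 0.30). CCNA2 (cyclin A2), the S-phase cyclin of dividing cells, rose by 0.88 ± 0.16 (adjusted p = 0.00149), with every OM3 array above every ip1 array. CCNA1, the A-type cyclin best known from the germ line, was at 8.18, 7.997 and 8.23 in ip1, while no OM3 array measured it above background, so it was at least 4.41-fold lower (adjusted p = 1.49e-06). CCNB1 (cyclin B1) rose by 0.50 ± 0.13 (adjusted p = 0.0116), while CCNB2 (cyclin B2) differed by -0.24 (interval -0.52 to 0.04, adjusted p = 0.131).

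Of their kinases, CDK1 was not called and CDK2 was slightly lower. CDK1, the mitotic kinase, differed by -0.042 (interval -0.34 to 0.25) and its second probe by 0.076 ± 0.17. CDK2, the partner of cyclins E and A, was lower by a change of -0.35 ± 0.13 (adjusted p = 0.0435) and by -0.61 ± 0.14 on its second probe (adjusted p over all probes = 0.00484). Adjusted over all probes, the main CDK2 probe narrowly missed the threshold (0.0502), and without ip1 replicate 1, 2 or 3, or OM3 replicate 1 or 3, its adjusted p was 0.0871, 0.0559, 0.114, 0.132 and 0.106. The call was also lost with median centring (0.217) and with no filter on dim probes (0.116).

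Both the phosphatases that remove the inhibitory phosphates of CDKs and the kinases that add them were changed. CDC25B, which acts at the start of mitosis, was at 12.45, 12.61 and 12.78 in ip1 and 10.58, 10.44 and 10.02 in OM3. The groups were apart by nearly 2 log2 units at their closest, a change of -2.27 ± 0.18 (adjusted p = 9.70e-06), 4.82-fold lower. CDC25C was lower as well (-0.56 ± 0.15, adjusted p = 0.0102), though its other probes gave -0.35 and -0.23 and were not called. CDC25A, the G1/S member, rose by 0.50 ± 0.15 (adjusted p = 0.0167) and by 0.83 ± 0.17 on its second probe. The call of its main probe was lost without ip1 replicate 2 (adjusted p = 0.0502), without OM3 replicate 2 (0.0586), with cyclic loess (0.0515) and with no filter on dim probes (0.0513). Both inhibitory kinases were lower, WEE1 by a change of -0.76 ± 0.13 (adjusted p = 0.00123) and PKMYT1 by -0.73 ± 0.16 (adjusted p = 0.00410). Neither overlapped between groups, and the second PKMYT1 probe gave -0.69 ± 0.14.

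SKP2, the ubiquitin ligase subunit that marks p27 for destruction, was higher in OM3, as was the mRNA of its target CDKN1B. SKP2 was at 11.73, 11.47 and 11.60 in ip1 and 12.50, 12.53 and 12.73 in OM3, a change of 0.99 ± 0.14 (adjusted p = 0.000324). Its 3 probes ranged from 0.59 to 1.06, and all passed. CKS1B, the cofactor of SKP2 in this step, differed by 0.27 (interval -0.05 to 0.59) on its main probe and was called on the second (0.43 ± 0.15, adjusted p over all probes = 0.0383). Its paralog CKS2 was lower by a change of -0.46 ± 0.13 (adjusted p = 0.0150) and -0.74 ± 0.13 on the second probe. The main CKS2 call was lost without ip1 replicate 3 (adjusted p = 0.0631) and without OM3 replicate 1 (0.0509).

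A second pair of promoter words was found in several members, among them genes of the B-type cyclin and CKS families. The hexamers TTTGAA and TTTAAA match forms of the CHR element, through which MuvB complexes act on genes of late cell cycle phases. A match alone does not show a working CHR element, and whether MuvB acts through those found here was not tested. The TTTAAA form is its own reverse complement. The hexamers were searched on both strands within the 40 bases before the start, a window chosen after the positions were seen. They were found there in 9 of the 35 members (25.7%) and in 4.54% of all genes of the table, a contrast that the choice of window favours. Anywhere in the 300 bases they were found in 45.7% of the members, 27.9% of all genes and 22.1% of the tested genes. Of these 9, CCNB1, CCNE1 and CDKN1B were higher, CDC25C, CKS2 and TFDP2 lower, and CCNB2, CDK1 and CKS1B did not pass. Over all genes tested, 57.1% were called (31.2% higher and 25.9% lower). The 100 bases before the start are shown for both cyclin B and both CKS genes, to set the words of paralogs beside their changes, with the word in capitals. CCNB1 holds TTTAAA, and CCNB2, CKS1B and CKS2 hold TTTGAA, in CKS2 on the opposite strand. They lie on the plus strand at chr5:69167050-69167149 (CCNB1), chr15:59105046-59105145 (CCNB2), chr1:154974581-154974680 (CKS1B) and chr9:89311095-89311194 (CKS2).
CCNB1: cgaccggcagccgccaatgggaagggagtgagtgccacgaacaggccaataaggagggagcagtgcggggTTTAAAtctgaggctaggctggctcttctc
CCNB2: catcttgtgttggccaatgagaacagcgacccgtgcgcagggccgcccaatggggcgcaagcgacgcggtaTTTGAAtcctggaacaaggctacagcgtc
CKS1B: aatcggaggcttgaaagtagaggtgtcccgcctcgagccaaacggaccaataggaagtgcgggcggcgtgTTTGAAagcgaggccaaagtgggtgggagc
CKS2: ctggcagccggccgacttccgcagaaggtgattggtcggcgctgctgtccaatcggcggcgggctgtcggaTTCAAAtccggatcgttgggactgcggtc

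The remaining members act beside the core cycle. CCNG1 (cyclin G1), a p53 target, was at 10.20, 9.36 and 9.44 in ip1 and 11.14, 11.02 and 11.19 in OM3. It rose by 1.45 ± 0.22 (adjusted p = 0.000559), 2.73-fold, although 1 ip1 array stood above the other two. CCNG2 differed by 0.30 (interval -0.03 to 0.64), and CCNF, an F-box cyclin of a ubiquitin ligase, by -0.038 (interval -0.35 to 0.28). CDK5, a kinase best known from neurons, was at 8.38, 8.90 and 8.75 in ip1 and 9.89, 9.74 and 9.46 in OM3, a change of 1.02 ± 0.18 (adjusted p = 0.00132). Its activator CDK5R1 was lower (-0.67 ± 0.17, adjusted p = 0.00848, chosen after its values were seen). CDK7, which activates other CDKs together with cyclin H and MNAT1, rose by 0.63 ± 0.18 (adjusted p = 0.0141). Of its partners, MNAT1 rose by 1.00 ± 0.19 (adjusted p = 0.00195). CCNH, chosen after its values were seen, gave 0.38 ± 0.14 (adjusted p = 0.0404) on its main probe and 0.20 ± 0.13 on a second, which was not called. CCNH did not pass with no filter (adjusted p = 0.106), with cyclic loess (0.112), with the mean of both probes (0.0819), and without ip1 replicate 1 (0.0557), ip1 replicate 2 (0.123), OM3 replicate 1 (0.0894), OM3 replicate 2 (0.0773) or OM3 replicate 3 (0.0959).

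For 15 members more than 1 probe passed the filter. In 13 of them the changes had the same sign, CCNE1 and CDK1 being the exceptions, and in none were probes called in opposite directions (55.1% of all 15748 named probes past the filter were called). For 24 members a single probe was named, among them CCND1, CDK6, RB1, E2F2, E2F3, E2F5 and CDC25B, so these rest on 1 probe each.

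**Figure D3:**
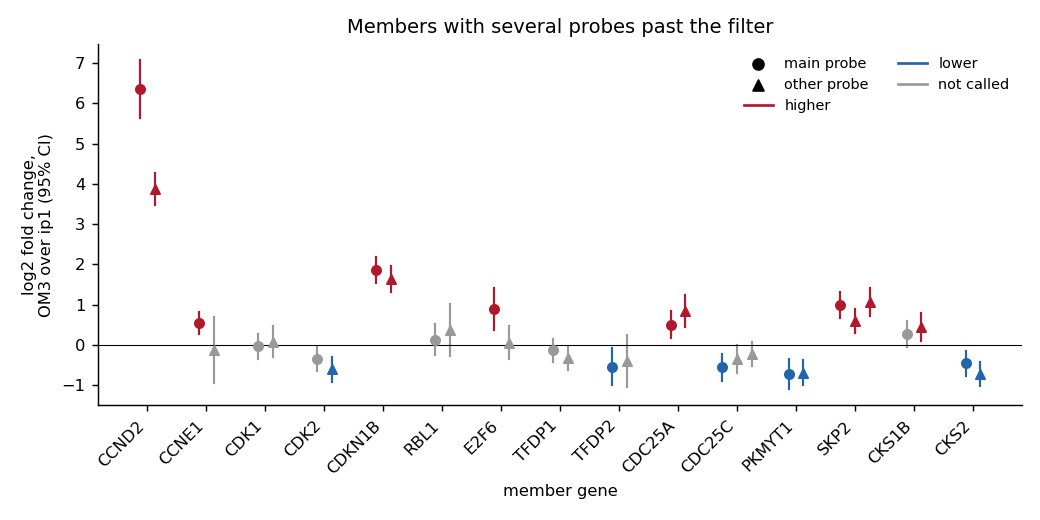
Log2 fold change of OM3 over ip1 with its 95% confidence interval (y axis) for each probe past the filter of the 15 members with several (x axis), circles for the main probe and triangles for others, coloured by call over all probes. The CCND2 probes lie at 6.36 and 3.87 and those of CDKN1B at 1.86 and 1.63, while the dim second probes of CCNE1 and E2F6 lie at -0.13 and 0.051.

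Targets and partners of the engine went both ways. Of 36 tested genes of DNA replication and nucleotide synthesis, many of them E2F targets, 8 were higher and 7 lower (41.7%, median 0.15). Over all genes tested, 57.1% were called and the median was 0.085. The ribonucleotide reductase gene RRM2 rose by 1.23 ± 0.14 (adjusted p = 8.57e-05) and the helicase gene MCM6 by 1.13 ± 0.13. The thymidine kinase gene TK1 had a change of -1.26 ± 0.14 and the ligase gene LIG1 one of -1.18 ± 0.16. These counts depended on the scaling: 5 were higher with cyclic loess and 13 with median centring, and 4 were higher without ip1 replicate 2, 5 without OM3 replicate 2.

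Of 29 genes of G2 and mitosis, 5 were higher and 13 lower (62.1%, against 57.1% of all genes, median -0.31), and 8 were lower without ip1 replicate 3. The centrosome kinase gene NEK2 rose by 1.18 ± 0.17 and the spindle checkpoint gene BUB1 by 1.02 ± 0.22, whereas the centromere histone gene CENPA had a change of -1.11 ± 0.12 and the checkpoint gene BUB1B one of -1.04 ± 0.14. The proliferation marker MKI67 was lower (-0.72 ± 0.17, adjusted p = 0.00549), while the replication clamp gene PCNA rose by 0.48 ± 0.14 (adjusted p = 0.0140, and 0.0502 without ip1 replicate 2), both chosen after their values were seen. Of 7 tested genes of MuvB, MYB and FOXM1, 2 rose (28.6%, against 57.1% of all genes called) and the others did not pass. Those that rose were the MuvB subunit genes LIN9 (1.14 ± 0.23) and LIN54 (1.01 ± 0.14).

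Of 22 genes of the ubiquitin ligases APC/C and SCF, 7 were higher and 5 lower (54.5%, against 57.1% of all genes, median 0.14). Subunit genes of the APC/C gave the largest increases, ANAPC10 by 2.04 ± 0.15, ANAPC4 by 1.52 ± 0.15 and ANAPC1 by 1.35 ± 0.13, although a second ANAPC1 probe, above background on every array, gave -0.0055. Other APC/C genes, named after their values were seen, were lower: FZR1 (-0.94 ± 0.18), ANAPC2 (-0.59 ± 0.19), CDC20 (-0.55 ± 0.14) and ANAPC7 (-0.51 ± 0.18, with overlapping groups). ANAPC11, named likewise, was at 11.61, 12.04 and 11.69 in ip1 and 10.72, 10.77 and 10.71 in OM3. BTRC, an F-box gene, was at least 2.13-fold higher, with no ip1 array above background. Without ip1 replicate 3, or without OM3 replicate 3, 3 of the 22 genes were lower. Of 23 genes of transcriptional and atypical cyclins and CDKs, 8 were higher and 4 lower (52.2%, against 57.1% of all genes, median 0.096). Among them were CCNJ (1.85 ± 0.19, above background on 1 of 3 ip1 arrays), CCNO (1.55 ± 0.17) and CDK14, which was at least 1.56-fold lower. The number higher was 5 without ip1 replicate 2 or OM3 replicate 1, and 4 without OM3 replicate 3.

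Of 10 tested genes around ATM, ATR and the checkpoint kinases, 3 were higher and 2 lower (50%, against 57.1% of all genes, median 0.085). ATR, the kinase that senses stalled replication and restrains CDKs through CHEK1, was at 9.58, 9.58 and 9.66 in ip1, while no OM3 array measured it above background, so it was at least 12.2-fold lower (adjusted p = 1.48e-06). The groups were far apart on this probe, while the other ATR probes, at 4.93 to 5.53 on average, did not pass the filter and carry no test. ATRIP, the partner protein of ATR, rose by 1.05 ± 0.13, the kinase gene CHEK2 rose by 1.26 ± 0.13, and TIMELESS, a replication fork gene, had a change of -0.49 ± 0.12 that was not called with median centring (adjusted p = 0.0537).

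**Figure D4:**
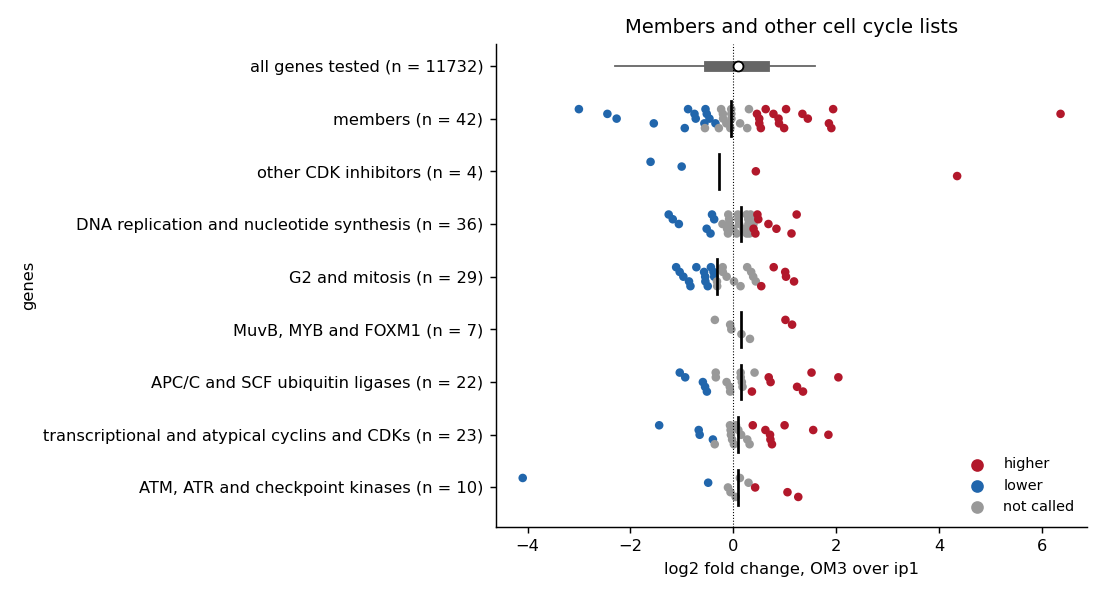
Log2 fold change of OM3 over ip1 (x axis) for the members and for 7 other cell cycle lists (y axis), 1 point per gene coloured by call with a bar at each median; for all 11732 genes the thick bar spans the quartiles, the thin line the 5th to 95th percentile and the open circle the median of 0.085. Fitted values are drawn also for genes below background in 1 line, such as ATR and CDKN2A. Medians of the other lists run from -0.31 to 0.16, and the members spread from -3.002 to 6.36.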

How the data were processed

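The authors deposited linear probe intensity values for 48799 probes, traced by the submitters' processing notes to BeadStudio (version not stated). Its columns name the group only, so replicates are numbered in column order, and 3 columns that match no sample were not used. The second deposited table holds log2 values, which share 1 distribution and have a rank correlation of 1 with the intensities. It served as an alternative, and no source names the software that normalized it.

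The intensity table has no control probes or detection p-values. Background was therefore corrected with limma's normexp fitted to all signals (offset 16), followed by quantile normalization and log2. Detection was set against each array's background peak (kernel bandwidth 0.02; normal probability, upper tail, 0.05), and probes above it on at least 3 arrays were kept. A gene is its kept probe with the highest mean. Symbols came from the platform annotation, matched to RefSeq by gene identifier, with 39 named probes unmatched and 13 naming several genes.

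The comparison of 3 OM3 with 3 ip1 arrays used limma 3.58.1 under R 4.3.3: lmFit, then eBayes, with two-sided p-values adjusted by Benjamini-Hochberg over all genes. The median standard error was 0.160. A probe below background on every array of 1 group is given a bound: the bright group's mean against a floor that is, per dim array, the lowest detected signal or the dim probe's signal, whichever is higher. On simulated data for this comparison (10982 genes, 179 of them changed), 53.3% of 2-fold and 86.5% of 4-fold changes were recovered, and 7.41% of the calls were unchanged genes. Far fewer genes changed there than the 57.1% called in the data, so these rates cannot be carried over to the calls given here. All members are named, and from each pathway list up to 4 called genes with the largest change and no overlap. CDKN1A, CDKN1C, CDKN2A and CDKN2B are named whatever their values. The members and lists were chosen with earlier results of these data known.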

Additional observations from a re-analysis of the deposited data

How the results depend on the processing

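No paired analysis was possible because the labels give the groups no replicate numbers in common. Over 14 alternatives, 22 of the 29 called members kept their call and direction wherever they were measured, and CCND1, CCNE1, CDC25A, CDK2, CKS2, E2F4 and TFDP2 lost theirs under at least 1. Of the 13 members not called, CCND3 and CDKN2D were called lower under some. Between 24 and 31 members were called, 14 to 16 higher and 9 to 15 lower. The members' median ran from -0.13 with cyclic loess to 0.065 with median centring. Cyclic loess shifted the median of all genes by -0.11, so changes of that size have no settled sign. Members near 0 and never called changed sign: with median centring CCNF (0.12), CDK1 (0.092) and CDKN3 (0.13), with cyclic loess RBL1 (-0.024), with the mean of probes CDK1 (0.017), and with 1 replicate left out CCNE2 (-0.13 to 0.056), CCNF (-0.11 to 0.046), CDK1 (-0.097 to 0.016) and CDKN3 (-0.24 to 0.21). The cause was not tested.

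For DNA replication, higher genes numbered 5 with cyclic loess, 13 with median centring and 5 with no filter, and lower genes 4 with median centring and 4 with no filter; leaving out 1 replicate gave 4 to 10 higher and 4 to 6 lower. For G2 and mitosis this gave 8 to 13 lower, and for MuvB, MYB and FOXM1 0 to 1 lower. For the APC/C and SCF, 3 were lower with no filter, and 3 to 6 with 1 replicate left out. For the transcriptional and atypical list, 5 were higher with cyclic loess and 5 with no filter, and 4 to 7 with 1 replicate left out. For the checkpoint list, 1 was lower with median centring and 1 with probes above background on all 6 arrays. For the other CDK inhibitors, 1 was higher with cyclic loess, 1 with median centring, 1 with the authors' table, 1 with the filter on all 6 arrays and 1 with no filter, 1 to 2 with 1 replicate left out, and 1 was lower with the filter on all 6 arrays. With 3 arrays a group, dim probes such as E2F1, E2F8 and CCNE2 are measured close to background.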
